A study of Mus musculus with 16 samples.

Results

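The effect of tau was measured in mouse brain that lacks Ch25h, in 8 of the 16 bulk RNA sequencing libraries of the series: 4 libraries of genotype Ch25h-/- Tau+ and 4 of genotype Ch25h-/- Tau-. The libraries were chosen by their genotype labels alone, and every gene in the table was considered. All mice were female and 9 months of age, and both groups lack Ch25h, so the groups differ by label in tau status only. The other 8 libraries (Ch25h+/+ Tau+ and Ch25h+/+ Tau-, 4 each) served as a reference that shares no library with the 8 described here. The labels give frontal cortex as the tissue, whereas the design text of the series says hippocampus. The labels name neither the tau line and its promoter nor the way Ch25h was removed, so Tau+ is taken to mean that the mice carry added tau. Nothing in the labels states that the libraries came from separate animals, so p-values measure the spread between these samples, which may be technical.

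Tau is a microtubule-binding protein of neurons that forms intracellular aggregates in tauopathies. Microglia and astrocytes react to such aggregates in mouse models with genes of antigen presentation, complement, lysosomes and the interferon response. Ch25h, an enzyme that hydroxylates cholesterol, is expressed by activated macrophages and microglia, and its oxysterol product acts on cholesterol synthesis and on inflammatory signalling. The comparison asks which of the transcripts that differ with tau do so when this enzyme is absent.

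The 8 libraries held 15530352 to 25602500 counts each, and values are given as CPM (counts scaled to the library size after TMM adjustment) unless stated otherwise. Ch25h had 0 counts in all 8, where 3 counts would be 0.117 to 0.195 CPM, and 5 to 30 counts in each Ch25h+/+ library. Tau+ replicate 1 stood apart among the 8: its ribosomal RNA transcript CT010467.1 was at 154 CPM, against 2352 to 3833 in the other Tau+ libraries and 3120 to 5573 in the 4 Tau- libraries. The same library had the lowest Malat1, at 237 CPM against 399 to 1021 in the other 7, and the greatest depth. In the 8 Ch25h+/+ libraries CT010467.1 was at 112 to 464 CPM and Malat1 at 164 to 291 CPM, so this library had the levels of the other genotype in both, and ribosomal RNA otherwise cannot be told apart from Ch25h genotype. Choroid plexus markers summed to 273 to 4085 CPM in Tau+ and 221 to 2530 in Tau-. Cortical markers (10 genes, Cux2 among them) summed to 1226 to 1408 CPM in Tau+ and 1164 to 1405 in Tau-, and 10 hippocampal markers to 530 to 561 and 472 to 698. Of 18 marker sums, only that of the striatum did not overlap between the groups, at 225 to 263 CPM in Tau+ and 275 to 326 in Tau-. Its 10 genes all had log2 fold changes below 0, from -0.88 (Adora2a) to -0.01 (Tac1), and none passed. Of the 10 only Pde10a did not overlap, at 53.5 to 62.4 CPM in Tau+ and 67.8 to 98.3 in Tau-. T cell markers summed to 2.29 CPM at most, with Cd3d at 0 in all 8 libraries. In bulk tissue, fewer cells of a type and less RNA per cell cannot be told apart.

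Few genes passed. Of 17736 genes tested, 7 passed an adjusted p of 0.05 (0.0395% of genes; edgeR quasi-likelihood test, Benjamini-Hochberg). Higher in Tau+ were 5 (0.0282%), Prnp, Lamr1-ps1, Gbp2b, 4930590L14Rik and Gm5900, and lower were 2 (0.0113%), Gm8210 and Rps27rt. In Ch25h+/+ the same test called 277 genes (1.56%), 261 higher (1.47%) and 16 lower (0.0902%). Leaving out Tau+ replicate 1, the library low in ribosomal RNA, also gave 7 genes, with Rps27rt lost and Col6a5 gained. Leaving out Tau- replicate 4 gave 13.

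Prnp encodes the prion protein, and its promoter drives some tau transgenes. Whether it does here is not given in the sources used here and was not tested. The level of Prnp was 1691, 1821, 1414 and 1554 CPM in the 4 Tau+ libraries and 708, 749, 735 and 833 CPM in the 4 Tau- libraries. The groups did not overlap. The log2 fold change was 1.10 with a standard error of 0.09, a 2.14-fold rise (edgeR quasi-likelihood test, adjusted p = 9.37e-06). The group means were 1620 ± 175 and 756 ± 53.8 CPM (SD, n = 4), and the exact two-sided permutation p of 0.0286 is the smallest that 4 against 4 allows (0.0571 adjusted over 2 tests). Mapt, the mouse tau gene, was at 513 ± 25.1 CPM in Tau+ and 483 ± 29.8 CPM in Tau- (SD, n = 4; exact two-sided permutation p = 0.229), and reads of a transgene from another species need not map to it.

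Lamr1-ps1 is a processed pseudogene at chr2:131904086-131904959 (GRCm38, plus strand), which ends 4968 bases before the annotated start of Prnp (chr2:131909928-131938429, plus strand). It had 64, 35, 35 and 38 counts in the Tau+ libraries and 0 counts in each Tau- library. Against a floor of 3 counts per library it was at least 12.6-fold higher in Tau+ (edgeR quasi-likelihood test, adjusted p = 1.27e-05). Its best match to a coding transcript, Rpsa, was 71.7% identical over 900 aligned bases, and Rpsa itself was level, at 278 to 303 CPM in Tau+ and 282 to 304 in Tau-.

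Gbp2b, a guanylate-binding protein of the interferon-inducible GTPases, and the noncoding 4930590L14Rik were the called genes on chromosome 3. Gbp2b (chr3:142594847-142619179, plus strand) was at 1.06, 2.21, 2.10 and 2.19 CPM in Tau+, with 27 to 37 counts per library. Among the Tau- libraries a single count was seen, in replicate 3. The ratio over the groups was 122, with a 95% counting interval of 21.4 to 4835 (edgeR quasi-likelihood test, adjusted p = 7.55e-05). Tau+ replicate 1, low in ribosomal RNA, was the lowest Tau+ library, and the call held without it. 4930590L14Rik (chr3:140951876-140953247, plus strand), a long intergenic RNA that lies 1.64 Mb before Gbp2b, had 33, 18, 22 and 17 counts in Tau+ and none in Tau-. That is at least 6.60-fold higher (edgeR quasi-likelihood test, adjusted p = 0.000787).

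The promoter of Gbp2b is shown beside that of its neighbour Gbp2, since they share a motif and differed in their values. Both windows are on GRCm38.p6 from RefSeq, plus strand, upstream of the RefSeq start site, at chr3:142594670-142594759 and chr3:142620564-142620653. The GENCODE start of Gbp2 is at 142620602, inside its window, so the annotations differ there. Capitals mark a motif of GAAA, any 2 bases and again GAAA, searched on both strands and here found on the minus strand. The motif TTCNNNGAA was in neither promoter.
Gbp2b: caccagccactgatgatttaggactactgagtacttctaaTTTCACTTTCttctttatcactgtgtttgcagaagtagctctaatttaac
Gbp2: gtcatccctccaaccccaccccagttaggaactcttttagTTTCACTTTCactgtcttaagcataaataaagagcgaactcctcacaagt
The motif, an interferon-response element in the textbook sense, was in 3.62% of the 12354 promoters of genes tested, in 16 of the 27 available promoters of interferon-stimulated genes and in 10 of 10 for the interferon-inducible GTPases. Gbp2 was at 3.36, 3.31, 3.58 and 2.998 CPM in Tau+ and 3.55, 4.59, 2.89 and 3.29 CPM in Tau-, so its groups overlapped. Its log2 fold change was -0.11 with a standard error of 0.21. Gbp3 and Gbp5 of the same cluster were at 0.12 and 0.03 in log2 fold change, with standard errors of 0.24 each. Gbp7 was at 0.47 (unadjusted p = 0.0200, edgeR quasi-likelihood test) and did not pass. Gbp2, Gbp3 and Gbp5 were chosen after their values were seen.

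Gm5900, Gm8210 and Rps27rt are near-identical copies of expressed genes, so reads can be assigned to the copy or to its parent, and their values are uncertain in that sense. How the authors' counting treated reads with several matches is not given in the sources used here. The differing stretches are shown because, within the aligned sequence, they hold the bases that differ. Reads that reach past it can also differ. Capitals mark the bases that differ, and positions are counted from 1 at the A of the start codon of the coding gene. Gm5900 (chr7:104949915-104950289, minus strand) differs from the coding sequence of Lamtor3, a subunit of the lysosomal Ragulator complex on chromosome 3, at C111T and G336A.
Gm5900: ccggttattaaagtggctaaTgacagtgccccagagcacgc
Lamtor3: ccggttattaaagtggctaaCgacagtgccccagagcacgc
Gm5900: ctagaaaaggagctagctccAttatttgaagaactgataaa
Lamtor3: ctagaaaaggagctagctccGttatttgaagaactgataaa
Gm5900 was at 1.49, 1.75, 1.48 and 1.94 CPM in Tau+ and 0.422, 0, 0.181 and 0.0558 CPM in Tau-, with no overlap between the groups. The log2 fold change was 3.30 with a standard error of 0.49 (edgeR quasi-likelihood test, adjusted p = 0.00685), and it no longer passed when the 8 libraries were fitted alone. Lamtor3 (chr3:137918506-137928900, plus strand), which was chosen after its values were seen, was at 33.6, 36.5, 35.1 and 28.2 CPM in Tau+ and 38.6, 39.6, 35.7 and 39.0 CPM in Tau-, a log2 fold change of -0.20 with a standard error of 0.08 that did not pass. The sums of both genes were 30.1 to 38.2 CPM in Tau+ and 35.9 to 39.6 CPM in Tau-, and overlapped.

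Gm8210 (chr1:43189156-43189638, plus strand), a processed pseudogene, is identical over its 483 bases to the pseudogene Gm13841 on chromosome 5 and differs from the coding sequence of the ribosomal protein gene Rpl29 on chromosome 9 at C72A, C300T and T423C.
Gm8210: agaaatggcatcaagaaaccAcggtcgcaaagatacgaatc
Rpl29: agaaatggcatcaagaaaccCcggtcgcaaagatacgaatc
Gm8210: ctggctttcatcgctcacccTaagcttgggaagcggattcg
Rpl29: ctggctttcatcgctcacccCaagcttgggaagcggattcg
Gm8210: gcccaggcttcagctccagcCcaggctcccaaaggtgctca
Rpl29: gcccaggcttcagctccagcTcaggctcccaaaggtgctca
Gm8210 was at 1.17, 0.195, 0.341 and 0.187 CPM in Tau+ and 4.22, 7.29, 2.77 and 3.85 CPM in Tau-. The groups did not overlap, and the log2 fold change was -3.09 with a standard error of 0.43 (edgeR quasi-likelihood test, adjusted p = 0.00398), a call that was lost when the 8 libraries were fitted alone. Its identical copy Gm13841 had the same direction without passing, at 14.01, 8.58, 8.86 and 9.06 CPM in Tau+ and 22.5, 22.8, 16.2 and 15.4 CPM in Tau-. Rpl29, chosen after its values were seen, was at 36.5, 83.0, 87.6 and 82.6 CPM in Tau+ and at 1.14, 1.06, 38.8 and 45.2 CPM in Tau-. In 2 Tau- libraries it was thus nearly absent, and it was as low, at 1.48 to 2.07 CPM, in 4 of the Ch25h+/+ libraries, 1 of them Tau+. Its log2 fold change of 1.74 had a standard error of 1.03 and did not pass. The summed level of the 3 genes was 51.7 to 96.8 CPM in Tau+ and 27.9 to 64.5 CPM in Tau-.

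Rps27rt (chr9:114982366-114982739, minus strand) holds an intronless copy of the ribosomal protein gene Rps27 of chromosome 3, and 341 of its 374 bases aligned to an Rps27 transcript with no mismatch. Its whole coding sequence of 255 bases is shown, since no base in it differs from that of Rps27.
Rps27rt: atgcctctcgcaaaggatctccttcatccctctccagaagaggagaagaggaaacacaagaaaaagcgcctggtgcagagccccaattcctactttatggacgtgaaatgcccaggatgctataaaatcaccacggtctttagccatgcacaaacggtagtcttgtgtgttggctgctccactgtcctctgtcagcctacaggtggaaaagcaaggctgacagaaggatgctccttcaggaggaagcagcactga
Rps27rt was at 11.5, 14.1, 11.99 and 12.3 CPM in Tau+ and 43.7, 38.2, 63.7 and 37.8 CPM in Tau-, a log2 fold change of -1.88 with a standard error of 0.32 (edgeR quasi-likelihood test, adjusted p = 0.0334). Without each Tau+ library or Tau- replicate 1, 2 or 3 in turn it did not pass, with adjusted p up to 0.211 (edgeR quasi-likelihood test), nor with limma-voom, with only genes averaging 50 counts or more, or with the ribosomal RNA level as a covariate. Rps27 lay the other way, at 54.5, 64.1, 84.6 and 70.5 CPM in Tau+ and 54.2, 23.2, 13.4 and 39.8 CPM in Tau-, and did not pass. Rps27rt took 12.4 to 18.02% of the summed CPM of the pair in Tau+ and 44.6 to 82.6% in Tau-, while the sums overlapped, at 66.0 to 96.6 CPM in Tau+ and 61.4 to 97.8 in Tau-.

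**Figure D1:**
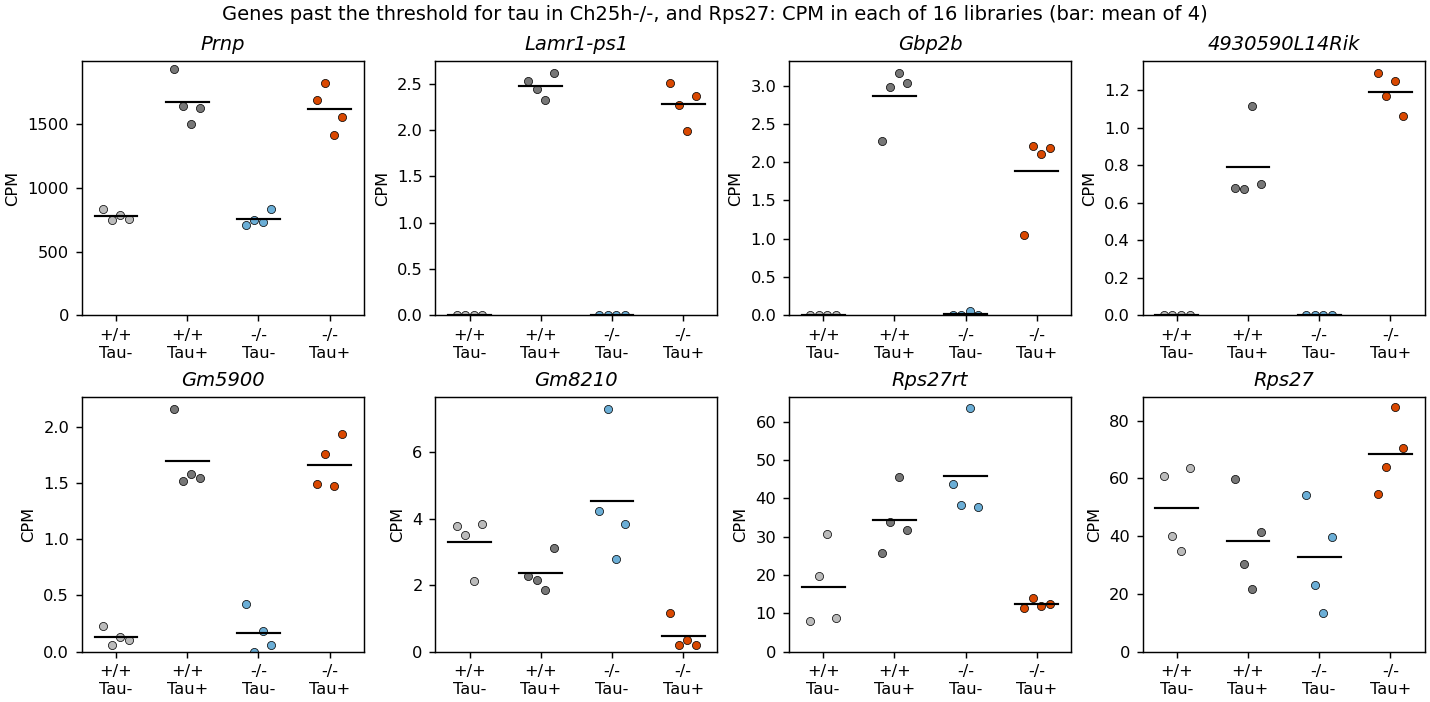
CPM (y axis, linear, from 0) of the 7 called genes and Rps27 in each of the 16 libraries, by genotype and tau status (x axis), with bars at the mean of 4 libraries. Lamr1-ps1 and 4930590L14Rik have 0 counts in every Tau- library of both genotypes, and Gm8210 is lowest in the Ch25h-/- Tau+ libraries, at 0.187 to 1.17 CPM, while 2 Ch25h+/+ Tau- libraries are lower in Rps27rt than any of them.

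The 5 genes higher in Tau+ were also among the 277 called in Ch25h+/+, in libraries that this comparison does not use. The log2 fold changes in Ch25h+/+ were 1.10 for Prnp and 3.61 for Gm5900. Lamr1-ps1, Gbp2b and 4930590L14Rik had 0 counts in each Ch25h+/+ Tau- library, and 41 to 58, 37 to 71 and 11 to 24 counts in the Ch25h+/+ Tau+ libraries. None of the 5 passed the test of the difference between genotypes. Gm8210 had a log2 fold change of -0.49 and Rps27rt one of 1.02 in Ch25h+/+, and neither passed there. For Rps27rt the difference between the genotypes passed, with an interaction log2 fold change of -2.90 (edgeR quasi-likelihood test, adjusted p = 0.0222).

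The remaining 272 genes called in Ch25h+/+ did not pass in Ch25h-/-. Of all 277, 221 had the same direction in Ch25h-/-, 47 had it at an unadjusted p under 0.05 (3.68% of all genes reached that p in either direction) and 2 were opposite at that p. In 27 of the 277 there was no overlap between Tau+ and Tau- in the same direction (2.14% of all genes did not overlap in either direction). The median log2 fold change, signed by the direction in Ch25h+/+, was 0.16 in Ch25h-/- and 1.08 in Ch25h+/+. Genes picked for a large effect in Ch25h+/+ carry an upward bias in that value. For 260 of the 277 genes the 95% interval of the effect in Ch25h-/- ended short of the value in Ch25h+/+, which was taken without its own error. In the test of the difference itself (edgeR quasi-likelihood test), 225 of the 277 had a smaller effect in Ch25h-/- at an unadjusted p under 0.05. Over all genes 4.13% reached that p in either direction, and 5 of the 277 passed after adjustment. Leaving out Tau+ replicate 2 lowered the count of 47 to 26, and leaving out Tau- replicate 1 raised it to 61.

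**Figure D2:**
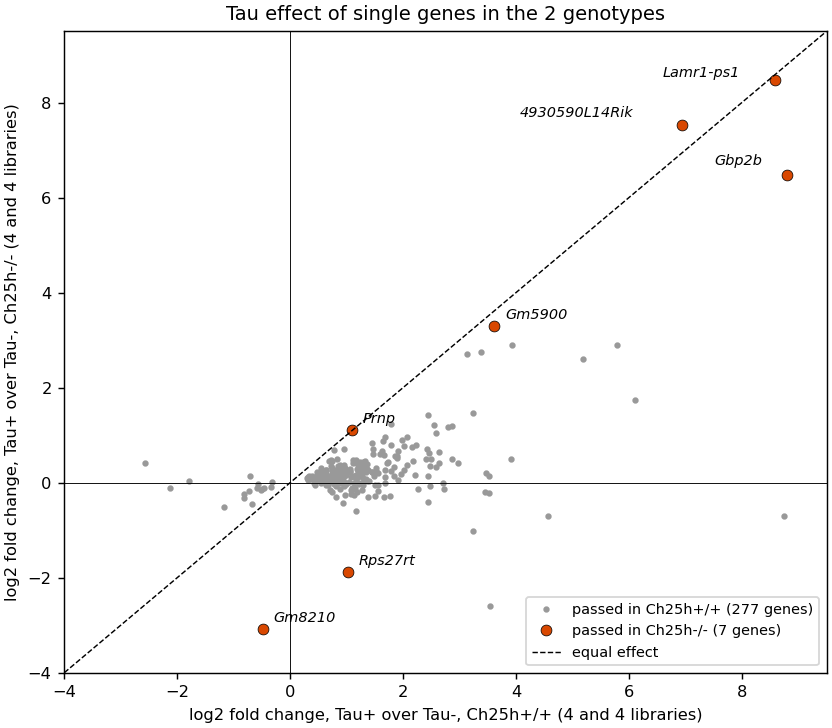
Fitted log2 fold change of Tau+ over Tau- in Ch25h+/+ (x axis) and Ch25h-/- (y axis), for 277 genes that passed in Ch25h+/+ (grey) and 7 that passed in Ch25h-/- (orange), with the line of equal effect dashed. Most grey points lie below the line, with medians of 1.08 and 0.16 signed by the direction in Ch25h+/+, while Prnp and Gm5900 lie near it; the fitted values of genes at 0 counts depend on the prior count.

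A test of the difference itself found 6 genes whose tau effect was smaller, or more negative, in Ch25h-/- (0.0338% of genes; edgeR quasi-likelihood test, Benjamini-Hochberg): Ctss, C1qa, H2-D1, Cd74, Lag3 and Rps27rt. The count was 0 without Tau+ replicate 3, without Tau+ replicate 4 and with the ribosomal RNA level as a covariate, where 698, 744 and 691 genes were at an unadjusted p under 0.05 (733, or 4.13%, with all libraries). DESeq2 on all 16 libraries called 55. It was 1 without Tau- replicate 1, 3 without Tau+ replicate 1 and 11 without Tau+ replicate 2. Of the Ch25h+/+ libraries, leaving out Tau+ replicate 1 gave 25, leaving out Tau- replicate 3 gave 2, and leaving out Tau+ replicate 2 or Tau- replicate 1, 2 or 4 gave 3 each. Ctss, a lysosomal protease of antigen-presenting cells, was at 44.1, 62.0, 47.3 and 46.8 CPM in Ch25h-/- Tau+ and 53.6, 48.5, 43.6 and 42.0 CPM in Ch25h-/- Tau-, and the groups overlapped. Its log2 fold change was 0.09 with a standard error of 0.11, against 1.28 in Ch25h+/+, a difference of -1.19 (adjusted p = 0.0131, edgeR quasi-likelihood test). C1qa, a chain of the complement starter C1q, was at 32.6 to 47.0 CPM in Tau+ and 34.0 to 41.4 in Tau-, a log2 fold change of 0.09 (0.0041 without Tau+ replicate 1 and 0.17 without Tau+ replicate 3) against 1.35 in Ch25h+/+. Cd74, the invariant chain of MHC class II, was at 5.67, 8.97, 13.6 and 15.6 CPM in Tau+ and 9.52, 4.88, 5.06 and 11.04 CPM in Tau-. Its log2 fold change of 0.50 had a standard error of 0.41, against 3.91 in Ch25h+/+, and was 0.28 without Tau+ replicate 4 and 0.74 without Tau- replicate 4. H2-D1, a classical MHC class I heavy chain, was at 51.8 to 56.9 CPM in Tau+ and 37.3 to 52.8 in Tau-, a log2 fold change of 0.23 (0.14 without Tau- replicate 3) against 1.07. Lag3, a receptor that microglia also express in mouse brain, was at 8.37 to 12.6 CPM in Tau+ and 6.36 to 8.68 in Tau-, with 0.44 against 1.73.

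The 10 largest rises in Ch25h+/+ among genes averaging 1 or more in log2 CPM included Cd74, H2-Aa, H2-Ab1, H2-Eb1, Lyz2, C4b, Gfap, Serpina3n and Cd84, for which the log2 fold changes in Ch25h-/- ran from -0.13 to 0.78. Gfap, the intermediate filament of astrocytes, was at 189, 302, 156 and 139 CPM in Tau+ and 163, 108, 113 and 122 CPM in Tau-. The groups overlapped, and the log2 fold change of 0.63 had a standard error of 0.26 and did not pass, against 2.46 in Ch25h+/+. Without Tau+ replicate 2 it was 0.35. C4b, a complement component, was at 27.9 to 56.3 CPM in Tau+ and 19.4 to 40.5 in Tau- (0.49 against 2.50, and 0.28 without Tau+ replicate 2). Serpina3n, a serine protease inhibitor of reactive astrocytes, was at 7.94 to 11.6 CPM in Tau+ and 6.08 to 13.2 in Tau- (-0.13 against 2.27). Of the genes with the largest falls in Ch25h+/+, Zgrf1, Ndst3 and Capza1 on chromosome 3 were at -0.52, -0.31 and -0.24 in Ch25h-/-, without passing. Each was at an unadjusted p under 0.05 and lost it in 3 or more of the 8 fits that left out 1 library, and without Tau+ replicate 2 Zgrf1 was at -0.32 and Ndst3 at -0.20. The other 2 of the 5 largest falls, Mettl14 and Rbpj, were at -0.18 and 0.13, with standard errors of 0.14 and 0.17 (-0.30 to -0.09 and 0.06 to 0.25 with single libraries left out). Capza1 is uncertain, since Gm3608, among the 10 largest rises in Ch25h+/+ and at 0.46 (0.21 to 0.78 with single libraries left out) in Ch25h-/-, is 99.5% identical to it.

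The gene lists below hold 30 pathways and cell states. One member of one list, Gbp2b, passed, so the lists are described by counts at an unadjusted p under 0.05 (1.9% of all genes tested reached it higher and 1.78% lower) and by their median, which was 0.01 on the log2 scale over all genes tested, of which 52.8% were above 0.

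The interferon-stimulated list had the highest median, 0.40, against 1.36 in Ch25h+/+, with 33 of 39 members above 0 and 9 at an unadjusted p under 0.05, all higher in Tau+. The 9 were Ifit3b, Ifit1, Oas2, Irf7, Eif2ak2, Bst2, Ifi27l2a, Mx1 and Ifih1, which include antiviral effectors, RNA sensors and the transcription factor Irf7. Ifit3b, an antiviral protein of the Ifit family, was at 3.33, 7.54, 4.49 and 3.997 CPM in Tau+ and 2.71, 3.18, 2.17 and 2.62 CPM in Tau-, a log2 fold change of 0.84 with a standard error of 0.26. Its groups did not overlap, it did not pass, and without Tau+ replicate 2 it was 0.55. Ifit1 was at 2.97, 6.76, 3.81 and 1.94 CPM in Tau+ and 3.19, 1.71, 1.27 and 1.73 CPM in Tau-. Tau+ replicate 2 was the highest library in both, and the mean log2(CPM + 0.5) of the list was 2.25 in that library, against 1.73 to 1.81 in the other Tau+ and 1.501 to 1.74 in the Tau- libraries. Without it, 3 members were at that p and the median was 0.19, below the 0.28 of the complement list in that fit. Without Tau- replicate 3, 2 members were at that p and the median was 0.33.

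Of the disease-associated microglia list, a state described in models of neurodegeneration, 27 of 30 members were above 0, with a median of 0.22 against 0.92 in Ch25h+/+. The 5 at an unadjusted p under 0.05 were Cst7, Itgax, Clec7a, Ccl4 and Ctsl. Cst7, a cystatin, was at 0.430, 3.96, 0.284 and 0.125 CPM in Tau+ and 0.241, 0, 0.241 and 0.112 CPM in Tau-. Itgax, an integrin chain, was at 0.469, 2.73, 0.341 and 0.749 CPM in Tau+ and 0.301, 0.176, 0.0603 and 0.112 CPM in Tau-. Tau+ replicate 2 was the highest of the 8 libraries in Cst7, Itgax and Clec7a, and without it 1 member of the list was at that p, 23 were above 0 and the median was 0.12. The same library carried the highest C1qb, Gfap and Lgals3bp of the 8, and of the homeostatic microglia list, at a mean log2(CPM + 0.5) of 5.37, against 5.16 to 5.27 in the other Tau+ and 5.05 to 5.22 in the Tau- libraries. The part of microglial marker level in these results was not tested. Apoe and Trem2, chosen after their values were seen, had log2 fold changes of 0.07 and 0.26 in Ch25h-/-, and 0.64 and 1.21 in Ch25h+/+. Trem2 too was highest in Tau+ replicate 2, at 12.1, 17.6, 10.6 and 12.9 CPM in Tau+ and 10.9 to 11.5 in Tau-.

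The complement list had a median of 0.28, with 15 of 19 members above 0 and C1qb, C3ar1 and C5ar2 at an unadjusted p under 0.05. C1qb was at 27.9, 48.3, 37.1 and 37.5 CPM in Tau+ and 31.3, 25.8, 24.5 and 30.6 CPM in Tau-, a log2 fold change of 0.42 with a standard error of 0.13 (0.28 without Tau+ replicate 2). MHC class II genes had a median of 0.23 against 2.45 in Ch25h+/+, with 2 of 9 at that p. Those 2, H2-Oa and H2-Ob, encode the chains that modulate peptide loading and were under 1 CPM in every one of the 8 libraries. Without Tau- replicate 3 the complement median was 0.14 and without Tau+ replicate 4 it was 0.15. The MHC class II median was 0.11 without Tau- replicate 3, 0.42 without Tau+ replicate 1 and 0.57 without Tau- replicate 1. The list of MHC class I and peptide loading had a median of 0.03 (0.56 in Ch25h+/+), which ran from 0.0039 to 0.086 as single libraries were left out, with Psme2 and H2-D1 at that p. Lysosomal proteases and hydrolases had a median of 0.11, with 27 of 31 above 0 and Ctsl and Psap at that p. Reactive astrocyte genes had a median of 0.10 against 1.15 in Ch25h+/+, with Gfap at that p, and homeostatic astrocyte genes had a median of -0.0024 (-0.03 to 0.03 with single libraries left out), with 9 of 18 above 0. The reactive astrocyte median was 0.05 without Tau+ replicate 4 or Tau- replicate 3, 0.16 without Tau+ replicate 1 and 0.25 without Tau- replicate 1.

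Cholesterol synthesis, the pathway on which oxysterols act, had a median of 0.09 in Ch25h-/- and -0.10 in Ch25h+/+. In Ch25h-/- 19 of 25 members were above 0, and Sqle (0.21), which encodes squalene epoxidase, was among those at an unadjusted p under 0.05, while 4 members were at that p in Ch25h+/+, all lower (9.38% of all genes were at that p there, 6.25% higher and 3.13% lower). Sqle was at 63.9 to 79.9 CPM in Tau+ and 53.2 to 70.3 CPM in Tau-. The groups overlapped, and the difference between the genotypes, 0.33, did not pass. LXR targets and sterol handling had a median of 0.08 (0.04 without Tau+ replicate 1 or Tau- replicate 4 and 0.05 without Tau+ replicate 4), with 14 of 20 above 0 and none at that p.

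All 22 myelin and oligodendrocyte genes were above 0, with a median of 0.20 (0.25 in Ch25h+/+) and none at an unadjusted p under 0.05. The list level was lowest in Tau- replicate 1, at 5.75, against 6.17 to 6.33 in the other Tau- and 6.15 to 6.45 in the Tau+ libraries. Without that library 18 of 22 were above 0 and the median was 0.10, and without Tau+ replicate 1 it was 0.12. Over 17 alternative fits the median ran from 0.07 to 0.29. Immediate early genes, induced by neuronal firing within minutes, had the lowest median, -0.35, with 2 of 22 above 0 and Btg2, Npas4 and Cyr61 lower at that p. Npas4 was at 51.3, 24.0, 17.7 and 52.9 CPM in Tau+ and 81.2, 83.2, 25.7 and 73.6 CPM in Tau-, so libraries of both groups were low and the groups overlapped. The number of these genes lower at that p ran from 0 to 8 as single libraries were left out, with 8 and a median of -0.64 without Tau- replicate 3. The median was -0.17 without Tau- replicate 1 and -0.23 without Tau+ replicate 2, with 0 at that p in each. Presynaptic genes (0.05, 20 of 26 above 0), glutamate receptor and postsynaptic genes (-0.01, 10 of 26), interneuron genes (-0.03, 5 of 20), neurofilament and axonal genes (0.05, 13 of 21) and tau kinases and phosphatases (0.01, 12 of 22) had no member at that p in either direction. Their medians lay between -0.076 and 0.092 in all fits that left out 1 library, and in 4 of these lists, all but the presynaptic, the sign changed in some.

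**Figure D3:**
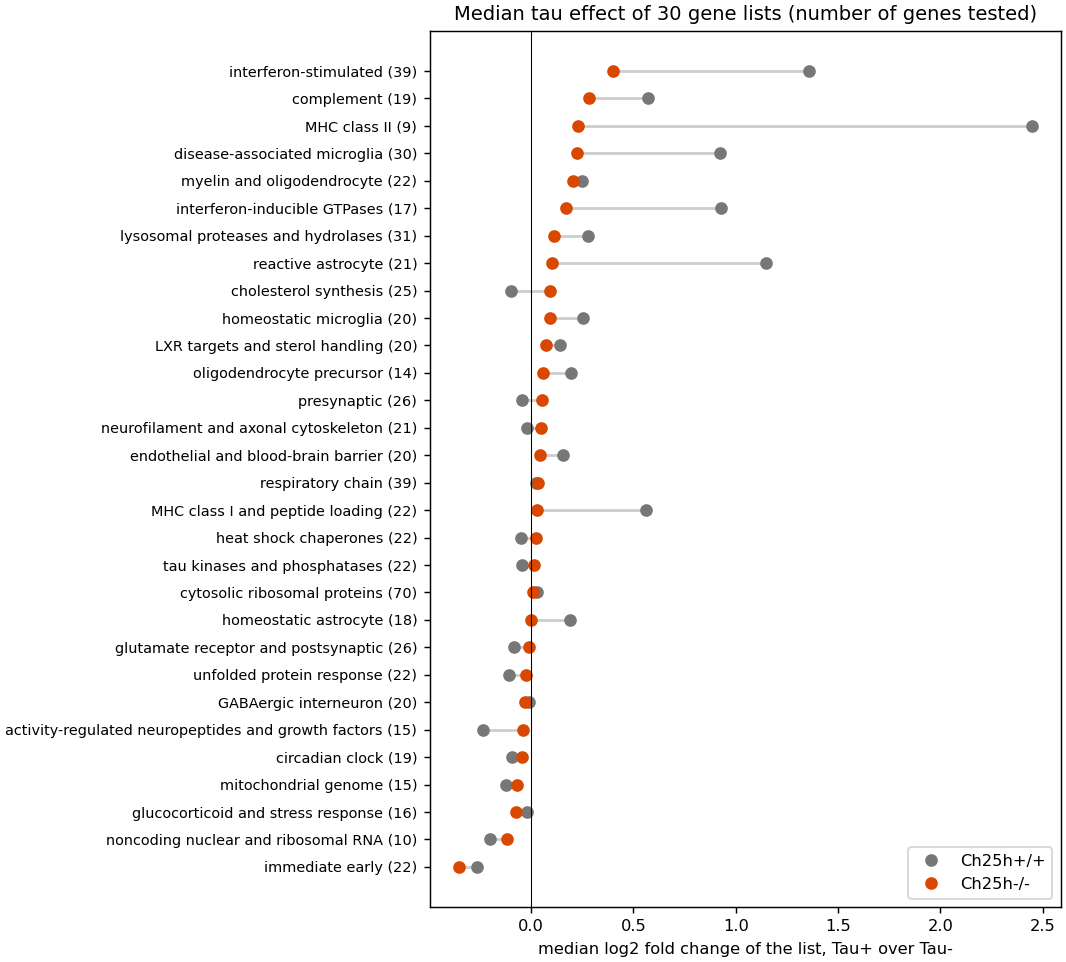
Median log2 fold change of Tau+ over Tau- (x axis) of 30 gene lists (y axis, with the number of genes tested), in Ch25h-/- (orange) and Ch25h+/+ (grey). The interferon-stimulated list is highest in Ch25h-/- at 0.40, and immediate early genes are lowest at -0.35.

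**Figure D4:**
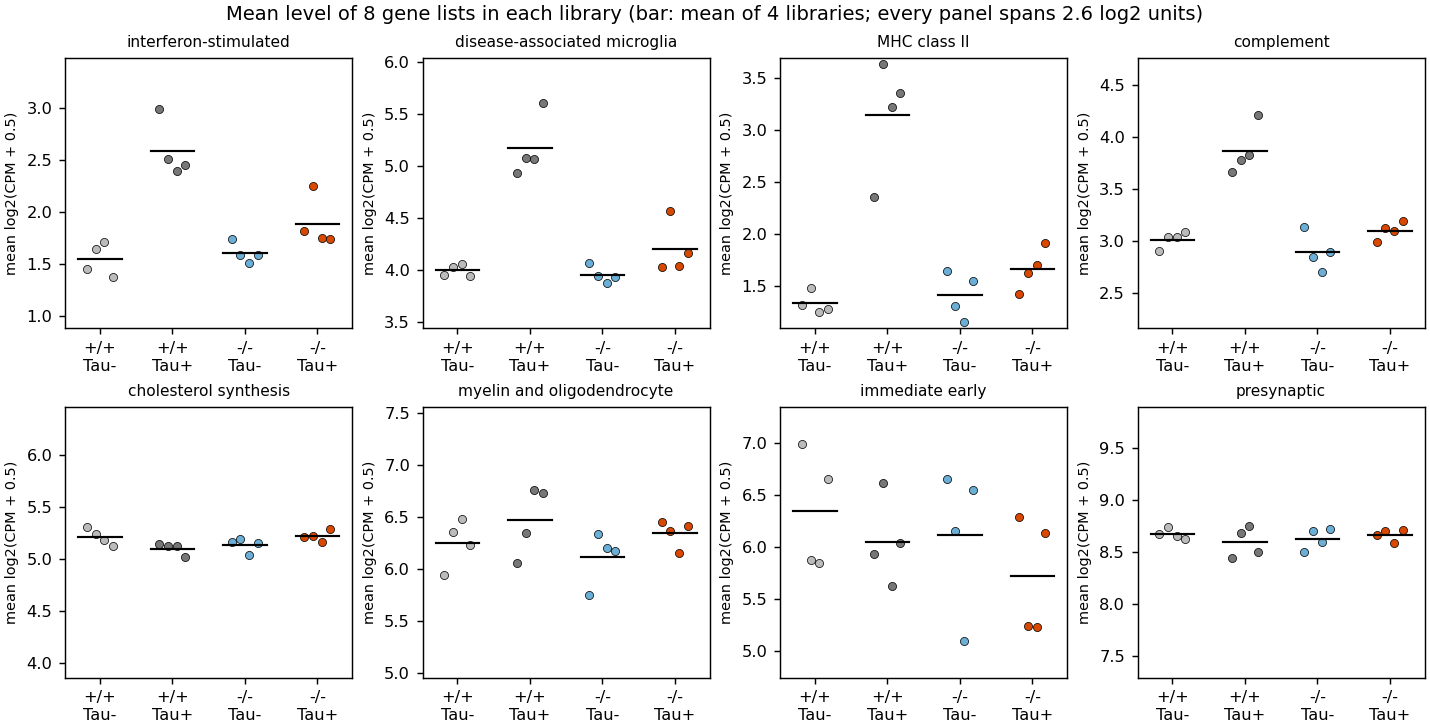
Mean log2(CPM + 0.5) over the members of 8 lists (y axis) in each of 16 libraries by group (x axis), with bars at the mean of 4 and the same span of the axis in every panel. Tau+ replicate 2 of Ch25h-/- is the highest of the 8 Ch25h-/- libraries for interferon-stimulated genes, at 2.25, and for disease-associated microglia genes, at 4.56.

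Genes with no overlap of the libraries, an unadjusted p under 0.05 and an average of 1 or more in log2 CPM numbered 141. The called genes Prnp, Gm8210 and Rps27rt were among them, while Lamr1-ps1, Gbp2b, 4930590L14Rik and Gm5900 had lower averages. Of the 141, 73 were higher and 68 lower. By the rule of no overlap alone, which is looser, 1.14% of all genes were higher and 0.992% lower. In Ch25h+/+, 110 of the 141 had the same direction and 28 reached an unadjusted p under 0.05 in it, while 4 reached it in the opposite direction (9.38% of all genes reached it there in either). The largest differences above 0 that did not pass were Srp54b, a GTPase subunit of the signal recognition particle (log2 fold change 2.02, standard error 0.47), Zfp125, Rps27, Gm7308, Gm7335, Vwa5b1 and Lgals3bp. Srp54b was at 12.5, 13.4, 15.2 and 17.4 CPM in Tau+ and 7.05, 2.9999, 2.95 and 1.39 CPM in Tau-, and is 99.7% identical to Srp54c, its neighbour on chromosome 12, so its counts are uncertain. Lgals3bp, a secreted glycoprotein that binds galectins, was at 17.3, 26.2, 22.2 and 25.4 CPM in Tau+ and 14.999, 12.6, 10.4 and 11.7 CPM in Tau-. Its log2 fold change of 0.87 had a standard error of 0.18 (adjusted p = 0.312, edgeR quasi-likelihood test), and in Ch25h+/+, where it passed, it was 1.65. The largest below 0 that did not pass were Gm11868, the chemokine gene Ccl28, Tmem267, Gm13841, Cd24a and Pdzph1. Ccl28 (log2 fold change -1.39) and Tmem267 (-0.97) lie side by side on chromosome 13, with starts at 119623819 and 119488039.

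Genes at an unadjusted p under 0.05 in both genotypes numbered 131, which is 20.1% of the 652 in Ch25h-/- and 7.87% of the 1664 in Ch25h+/+. Of these, 119 had the same direction, 87 higher and 32 lower, and 12 the opposite. Ly9, Fgr, Rab7b, Siglec1 and Tspo, myeloid or glial genes chosen after their values were seen, were higher in Tau+ at that p in both, and none passed in Ch25h-/-. Ly9 (0.227 to 1.56 CPM in Tau+, 0 to 0.181 in Tau-), Fgr (0.125 to 0.398 and 0 to 0.112) and Siglec1 (0.187 to 0.939 and 0.0588 to 0.181) were low, where 3 counts are worth 0.117 to 0.195 CPM. The 1.56 CPM of Ly9 was in Tau+ replicate 2, with the other Tau+ libraries at 0.227 to 0.430. Rab7b and Tspo had log2 fold changes of 1.24 and 0.68 in Ch25h-/- and 1.78 and 0.77 in Ch25h+/+. Tspo, a mitochondrial outer membrane protein used as a marker of glial activation, was at 4.499, 3.57, 5.0002 and 5.37 CPM in Tau+ and 3.31, 2.29, 2.35 and 3.51 CPM in Tau-, with no overlap.

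By position, the 17568 genes tested that have a GENCODE position were counted in 139 stretches of 20 Mb with at least 20 genes each, a division chosen after the data were seen. The median share of genes at an unadjusted p under 0.05 was 3.31% per stretch, and 3 stretches were over 10%. These were 20 to 40 Mb of chromosome 12 (13 of 83 genes, 15.7%), 40 to 60 Mb of chromosome 14 (27 of 175, 15.4%) and 100 to 120 Mb of chromosome 9 (28 of 239, 11.7%). In the same stretches 4 (4.82%), 23 (13.1%) and 21 (8.79%) genes were at that p in Ch25h+/+, against 9.38% of all genes, and 0, 3 and 5 were so in both genotypes with the same direction. Rps27rt and Rpl29 lie in the stretch of chromosome 9. As single libraries were left out, the shares ran from 10.8 to 19.3% on chromosome 12, from 9.14% (without Tau- replicate 3) to 20% on chromosome 14 and from 7.95% (without Tau- replicate 1) to 12.97% on chromosome 9. The chromosome 9 share was also under 10% without Tau+ replicate 2 or 4 or Tau- replicate 3, in the fit of the 8 libraries alone, with only genes averaging 50 counts or more and with the ribosomal RNA covariate.

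Over the genes at an unadjusted p under 0.05 in the stretches of chromosomes 14 and 12, aligned so that the Tau+ side is above 0, Tau- replicate 4 lay on the Tau+ side, with mean deviations of 0.16 and 0.08 on the log2 scale. The Tau+ libraries were at 0.20 to 0.43 and 0.13 to 0.56, and the other Tau- libraries at -0.51 to -0.44 and -0.54 to -0.46. In the chromosome 9 stretch Tau- replicate 4 lay on the Tau- side, at -0.11, with the other Tau- libraries at -0.46 to -0.28 and the Tau+ libraries at 0.20 to 0.46. The choice of genes fixes the direction of the groups in these values. Slc39a2, a zinc transporter gene of the chromosome 14 stretch, was at 5.48, 2.73, 3.47 and 2.94 CPM in Tau+ and 18.3, 12.5, 17.5 and 4.96 CPM in Tau-, where replicate 4 is the low value. Myh7, a myosin heavy chain gene, was at 1.88, 2.66, 4.26 and 4.25 CPM in Tau+ and 11.6, 10.2, 12.3 and 2.12 CPM in Tau-. Tmem260 was at 13.3 to 20.6 CPM in Tau+ and at 28.7, 27.4, 25.5 and 13.5 CPM in Tau-. Psmb5, a proteasome subunit gene, was at 27.0 to 33.5 CPM in Tau+ and at 51.5, 49.998, 42.2 and 31.6 CPM in Tau-. None of these 4, which were chosen after their values were seen, passed. Without Tau- replicate 4, 35 of 175 genes of the stretch were at an unadjusted p under 0.05 (4.88% of all genes), and without Tau- replicate 3, 16 (2.92% of all genes). In the former fit Slc39a2, Myh7 and Tmem260 were among the 13 genes called. In the chromosome 9 stretch Ppm1m, a protein phosphatase gene, was at 26.4, 29.9, 29.8 and 26.3 CPM in Tau+ and 15.5, 10.9996, 20.5 and 16.4 CPM in Tau-, with 0.82 in Ch25h-/- and 0.57 in Ch25h+/+ on the log2 scale.

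**Figure D5:**
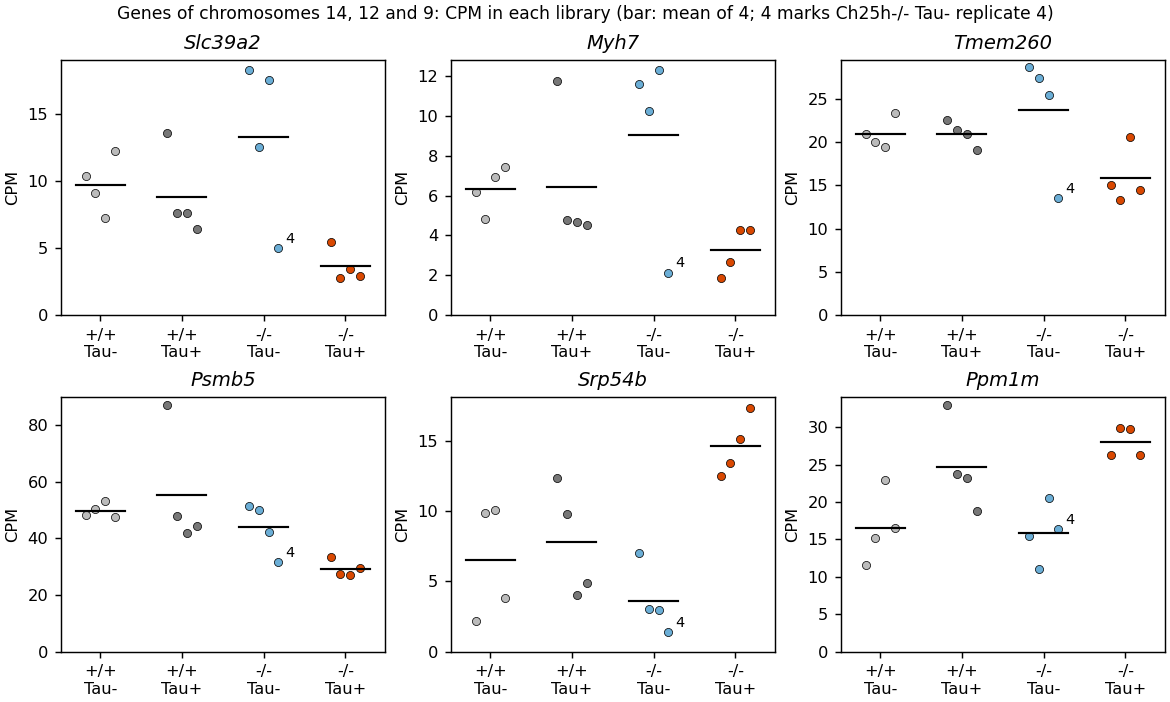
CPM (y axis, linear, from 0) of Slc39a2, Myh7, Tmem260 and Psmb5 of the chromosome 14 stretch, Srp54b, which lies on chromosome 12 outside the stretch counted, and Ppm1m of the chromosome 9 stretch in each of 16 libraries by group (x axis), with bars at the mean of 4. For the 4 chromosome 14 genes Ch25h-/- Tau- replicate 4, marked 4, lies near the Tau+ libraries (Slc39a2 at 4.96 CPM, the other Tau- libraries at 12.5 to 18.3).

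Chromosome 3, which holds Gbp2b and 4930590L14Rik, had 40 of 906 genes at an unadjusted p under 0.05 (4.42%), against 3.68% of all genes. The share was higher on chromosomes 14 (7.59%), 9 (5.9%), 19 (5.16%) and 12 (4.70%). Of the 40 on chromosome 3, 17 had the same direction at that p in Ch25h+/+, 10 of them lower. Over all genes 119 of 652 did, and on chromosome 19, 10 of 28. From 120 to 140 Mb of chromosome 3, 6 of 8 genes at that p were shared in this way, and from 140 to 160 Mb, 5 of 6. In Ch25h+/+, 24.0% and 14.6% of the genes tested in these stretches were at that p, against 9.38% of all genes. Alpk1, an innate immune kinase, was at 15.4, 21.4, 15.7 and 14.7 CPM in Tau+ and 6.14, 11.6, 16.03 and 5.30 CPM in Tau-, a log2 fold change of 0.78 with a standard error of 0.29, against 2.02 in Ch25h+/+. Unc5c, a netrin receptor, was at 27.2, 24.6, 29.4 and 28.7 CPM in Tau+ and 35.6, 32.6, 36.4 and 34.5 CPM in Tau-. Its groups did not overlap, and its log2 fold change was -0.34 in Ch25h-/- and -0.27 in Ch25h+/+. Alpk1 and Unc5c were chosen after their values were seen, and neither passed in Ch25h-/-.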

How the data were processed

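RNA of 16 mouse brain libraries was compared, with 4 libraries per group. The authors deposited 1 whole-number count per gene and library, in 54532 entries with 105 repeated symbols. Per the submitters' processing notes STAR 2.7 and the builds GRCm38 and mm10 were used. The counting program, the use of strand and the treatment of reads with several matches are not given in the sources used here, so overlapping, antisense and near-identical genes are uncertain. Per the labels, a column kit gave the RNA and a SMARTer kit the libraries.

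Totals were 15530352 to 25602500 counts per library. Intervals and floors of 3 counts cover counting error only, as the reads carry no molecular identifiers. After filterByExpr, 17736 genes remained. They were tested in R 4.3.3 by edgeR 4.0.16 with TMM, using its two-sided quasi-likelihood test and Benjamini-Hochberg adjustment at 0.05. The 16 libraries of the 4 groups shared 1 fit. CPM used library sizes after TMM. List levels are means of log2(CPM + 0.5). Prnp and Mapt were also compared with exact two-sided permutation tests. The fit was tested on simulated data. Positions and transcripts came by symbol from GENCODE M21 (99.1% of symbols tested), near-identical copies from blastn, and promoters from RefSeq.

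Genes were named by rule: all called; the 8 largest differences each way without overlap, at an unadjusted p under 0.05 and a mean log2 CPM of at least 1; Prnp, Mapt and Ch25h; the 2 smallest p of each list; the 10 largest rises and 5 largest falls in Ch25h+/+; and interaction calls. Members and lists were chosen with earlier results of these data known. Alternatives were RLE size factors, no filter, only genes averaging 50 counts or more, DESeq2 1.42.0, limma-voom (limma 3.58.1), 1 surrogate variable (sva 3.50.0), only the 8 libraries, and leaving out each library. Covariates for choroid plexus and ribosomal RNA levels were added after seeing the data. Some genes of the lists are not reported here.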

Additional observations from a re-analysis of the deposited data

Results flagged for a closer look

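In 6 genes the tau effect in Ch25h-/- minus that in Ch25h+/+ passed the interaction test (edgeR quasi-likelihood test, Benjamini-Hochberg). The log2 differences were -3.41 for Cd74, -2.90 for Rps27rt, -1.29 for Lag3, -1.26 for C1qa, -1.19 for Ctss and -0.84 for H2-D1.

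Among 248 sets of 4 libraries checked (94 named genes and 30 list levels in both Ch25h-/- groups), 28 had 1 library far from the other 3 by Dixon's test, or 11.3%, where chance gives about 1 in 20. Tau+ replicate 1, low in ribosomal RNA, was such a library in 9 genes. It was high for Gm8210 (1.17 CPM), Gm11868 (2.62), Gm13841 (14.01), Bcas1 (104.7), Ndufa2 (41.3) and Mettl14 (18.2), and low for Gbp2b (1.06), Psme2 (8.88) and Malat1 (236.7).

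Tau+ replicate 2 was high for Cst7 (3.96 CPM, the others 0.125 to 0.430), C1qc (37.8), Serpina3n (11.6), Ppp2r2a (101.2) and the interferon-stimulated list (2.25 on the log2 scale), and low for Zgrf1 (2.27 CPM). Tau+ replicate 3 was high for Hif3a (8.30 CPM) and Plin4 (6.36) and low for Osbp (76.5). Tau+ replicate 4 was high for H2-Ab1 (3.87 CPM) and Hspb8 (16.4).

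Of the Tau- libraries, replicate 4 was high for Zfp125 (2.79 CPM, the others 0.603 to 0.843), Ppp2r2a (89.9) and Emcn (5.63). Replicate 3 was low for Npas4 (25.7 CPM) and held the single count of Gbp2b (0.0603 CPM). Replicate 2 was high for H2-Oa (0.294 CPM) and low for Ndst3 (23.6), and replicate 1 was high for Lhx6 (29.998 CPM).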

How the results depend on the processing

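The count of 7 genes was 28 with no filter on low counts, 14 with DESeq2 and 2 (Prnp and Gm8210) with a mean of at least 50 counts, and 5 to 8 under the other alternatives. Of the genes given above as not passing, Lgals3bp, Ppm1m, Gm13841, Slc39a2, Tmem267 and Ccl28 were called both by DESeq2 and with no filter. Rps27, Srp54b, Myh7 and Gm11868 were called with no filter, and Gm11868 also with 1 surrogate variable. Leaving out single libraries gave 6 to 13. The count of 277 in Ch25h+/+ was 387 with no filter, 424 with DESeq2 and 498 with limma-voom. It was 208 with a mean of at least 50 counts, 211 with only the 8 Ch25h+/+ libraries and 243 with the ribosomal RNA covariate. Under the other alternatives it was 265 to 294. With single libraries left out it was 159 to 294 (159 without Tau+ replicate 4 and 172 without Tau- replicate 1 of Ch25h+/+). The 6 interaction genes became 57 with no filter, 55 with DESeq2, 11 with the choroid plexus covariate, 0 with the ribosomal RNA covariate (691 at an unadjusted p under 0.05, edgeR quasi-likelihood test) and 0 to 25 with single libraries left out. The cause was not tested. The signed median of 0.16 ran from 0.11 to 0.23 as libraries were left out. The Prnp difference of 864 CPM ran from 797 to 933, and that of Mapt (29.7) from 16.9 to 41.2, the last without Tau- replicate 4, where the exact permutation p was 0.0286, the smallest 3 against 4 allow. CT010467.1, at -0.79 (-1.07 to -0.40 with single libraries left out), was 0.00062 with the ribosomal RNA covariate, which is its own level, so that value is near 0 by construction. Small log2 values turned sign: with that covariate Bcas1 (-0.0080), with the choroid plexus covariate H2-Aa (-0.075), and with 1 library left out H2-Aa (-0.29 to 0.42), H2-Ab1 (-0.014 to 0.57), Serpina3n (-0.30 to 0.048) and Ctss (-0.026 to 0.16). No paired analysis was possible because the labels carry no replicate numbers and the numbers used only name libraries. Depth limits genes under about 1 CPM, where 3 counts are 0.117 to 0.195 CPM.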

Other observations

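Pituitary hormone genes, chosen after their values were seen, were high in Tau- replicate 1. Prl, the prolactin gene, was at 518 CPM there, against 0.241 to 19.4 CPM in the other Tau- and 0.782 to 8.74 CPM in the Tau+ libraries. Gh, the growth hormone gene, was at 118 CPM in that library and at 7.25 CPM or less in the other 7. Pomc, which encodes a hormone precursor, was at 93.7 CPM against 0.362 to 1.45 CPM. All 3 were among the 28 genes called with no filter on low counts and in none of the calls of the main test (edgeR quasi-likelihood test). What their level there shares with other genes was not tested.

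Gapdh, a glycolytic gene with many processed copies, was at 23.1, 13.6, 13.2 and 20.3 CPM in Tau+ and at 18.3, 146, 16.5 and 121 CPM in Tau-. Replicates 2 and 4 of Tau- were thus high and the other 6 libraries low. Of the fits run, it passed in the one with no filter.

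The circadian gene Arntl was at 43.3, 43.5, 41.3 and 42.0 CPM in Tau+ and 38.1, 37.5, 34.8 and 31.3 CPM in Tau-, with no overlap, a log2 fold change of 0.26 and a standard error of 0.09, and did not pass. It was the only member of the circadian clock list at an unadjusted p under 0.05. That list had 6 of 19 members above 0 and a median of -0.05. Pcsk1, a prohormone convertase, was at 60.2, 75.7, 75.5 and 78.9 CPM in Tau+ and 63.1, 55.0, 48.1 and 60.0 CPM in Tau-, where the groups overlapped. Its log2 fold change was 0.36 in Ch25h-/- and -0.22 in Ch25h+/+, and the difference did not pass. Pcsk1 was the only member at an unadjusted p under 0.05 in the list of activity-regulated neuropeptides and growth factors. There 5 of 15 were above 0 and the median was -0.04.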
